A study of Mus musculus with 2 samples.

Results

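Astrocyte genes were compared between WT and CD47 KO mice in cells isolated from brain, the brain mononuclear cells. The 36 genes cover astrocyte identity and cytoskeleton, the handling of glutamate and other transmitters, water and ion transport and junctions, metabolism, secreted and receptor proteins, and the metallothioneins. They were taken by name from the 18193 genes for which the platform annotation gives a probe set exactly 1 symbol. A probe set is a group of short probes read together as 1 signal, and the 36 genes had 92 of them. Each gene is given by the brightest of its probe sets, the one with the highest signal averaged over both arrays. The array maker marks some probe sets as reading several transcripts, among them the brightest of *Glul*, *Vim*, *Clu*, *Gja1*, *Dbi* and *Mt1*. Expressed probe sets are those at or above the array median (161 in WT, 146 in CD47 KO) in at least 1 of the genotypes. By this rule 33 of the 36 genes were expressed, of 11682 expressed genes in all, and so were 75 of the 92 probe sets.

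The cells came from whole brain that was digested with collagenase and DNase, and were collected where the 70% and 37% layers of a Percoll gradient meet. This preparation is made for microglia and holds other cells as well. The WT pool held RNA from 7 male mice (10 to 15 wks of age), and the CD47 KO pool held RNA from 6 male mice (12 to 16 wks of age) that lack *Cd47* in all cells. After amplification of 20 ng of RNA, each pool was read on 1 GeneChip Mouse Genome array. Single arrays of pooled RNA carry no replicates. Differences are therefore described without p-values or errors between animals, and the number of arrays limits their precision. What can be compared is how far the probe sets of 1 gene differ, which includes their affinities and the splice forms they read. The SD between them was 0.44 on the log2 scale for the 18 astrocyte genes with more than 1 expressed probe set.

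Astrocytes are the glial cells that take up glutamate and potassium released by neurons, line blood vessels with endfeet rich in water channels, and pass metabolites to one another through gap junctions. They store glycogen and convert glutamate to glutamine. Metallothioneins are small cysteine-rich proteins that bind zinc and copper, and astrocytes are among the brain cells that express them.

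The gene knocked out was read to check the genotypes. The 5 probe sets of *Cd47* had Log2 ratios (KO/WT) between -1.86 and -1.45, with signals of 5816 in WT and 1688 in CD47 KO cells on the brightest. The signal was lower but not absent. In CD47 KO cells all 5 stayed above the array median, the dimmest at 334, and the source of this signal was not tested. The labels give male mice for both arrays, whereas *Xist*, the RNA that silences the X chromosome in female cells, had signals of 7070 in WT and 6530 in CD47 KO cells on its brightest probe set. Of Y-linked genes, *Eif2s3y* had 189 and 461 (1.29) on its brightest probe set but 165 and 146 (-0.18) on the other. *Kdm5d* had 162 and 307 (0.92) on its brightest probe set. The other *Kdm5d* probe sets and all those of *Uty* were below the limit on both arrays. The part of sex in the results below was not tested.

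The astrocyte label was checked against 8 defining markers. *Slc1a2*, *Gja1*, *Aqp4*, *Slc1a3*, *Gfap* and *S100b* were expressed, at signals from 1062 (*S100b*) to 8851 (*Slc1a2*) in WT cells. *Aldh1l1*, a folate enzyme widely used to mark astrocytes, had signals of 96.8 in WT and 114 in CD47 KO cells, below both array medians. *Sox9*, a transcription factor of the lineage, had 92.8 and 73.3, also below the medians on all 3 of its probe sets. So the surface, transport and filament genes of astrocytes were bright here, while 2 of the defining markers were not above the limit in either genotype.

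Of the 33 expressed genes, 21 (63.6%) had a higher signal in CD47 KO cells and 12 a lower one, against 50.3% higher among all expressed genes. Their median Log2 ratio was 0.19, with quartiles of -0.08 and 0.31 and a range from -0.76 (*Gjb6*) to 0.84 (*Mlc1*). The median over all expressed genes was 0.00. None of the 33 passed the 2-fold limit in either direction, where 3.53% of all expressed genes were higher and 5.41% lower past it. Past 1.5-fold, 4 genes (12.1%) were higher, namely *Mlc1*, *Gpr37l1*, *Slc14a1* and *Atp1b2*, against 10.1% of all expressed genes, and 1 (3.03%), *Gjb6*, was lower, against 13.6%. The share past 1.5-fold higher was thus near the background. In these pooled cells, fewer astrocytes and less RNA per astrocyte cannot be told apart, nor can more astrocytes and more RNA per astrocyte.

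Signal strength matters for such counts, because dim genes spread more widely and the brightest genes were more often higher. When all expressed genes were split into 4 equal parts by mean signal, 19 of the 33 astrocyte genes fell in the brightest part. Of these, 14 were higher in CD47 KO cells, with a median of 0.20. Over the 2921 genes of that part, 60.4% were higher and the median was 0.05. The 14 dimmer astrocyte genes divided evenly, with 7 higher and a median of 0.00. The Log2 ratio exceeded the SD between probe sets of genes of like signal for 6 of the 33 genes (*Mlc1*, *Gpr37l1*, *Atp1b2* and *Ntsr2* higher, *Gjb6* and *Vim* lower), or 18.2%, against 20.7% of all expressed genes.

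How the arrays were brought to a common level moved these counts. The deposited signals have the same trimmed mean on both arrays but not the same median. When both arrays were centred to the same median of log2 signals, 25 of the 33 genes (75.8%) were higher and their median was 0.33, while 62.6% of all expressed genes were higher with a median of 0.14. Relative to all expressed genes the astrocyte median stood 0.19 higher under either scaling. Centring shifts all genes of an array alike, so it could hardly change this difference. With quantile normalization the difference was 0.14, and with loess normalization it was 0.15. With the mean over expressed probe sets the median was 0.075, only 0.08 above that of all expressed genes. Other choices of probe set moved it less. It was 0.17 with the median over all named probe sets, and 0.19 where probe sets marked as reading several transcripts were avoided.

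**Figure D1:**
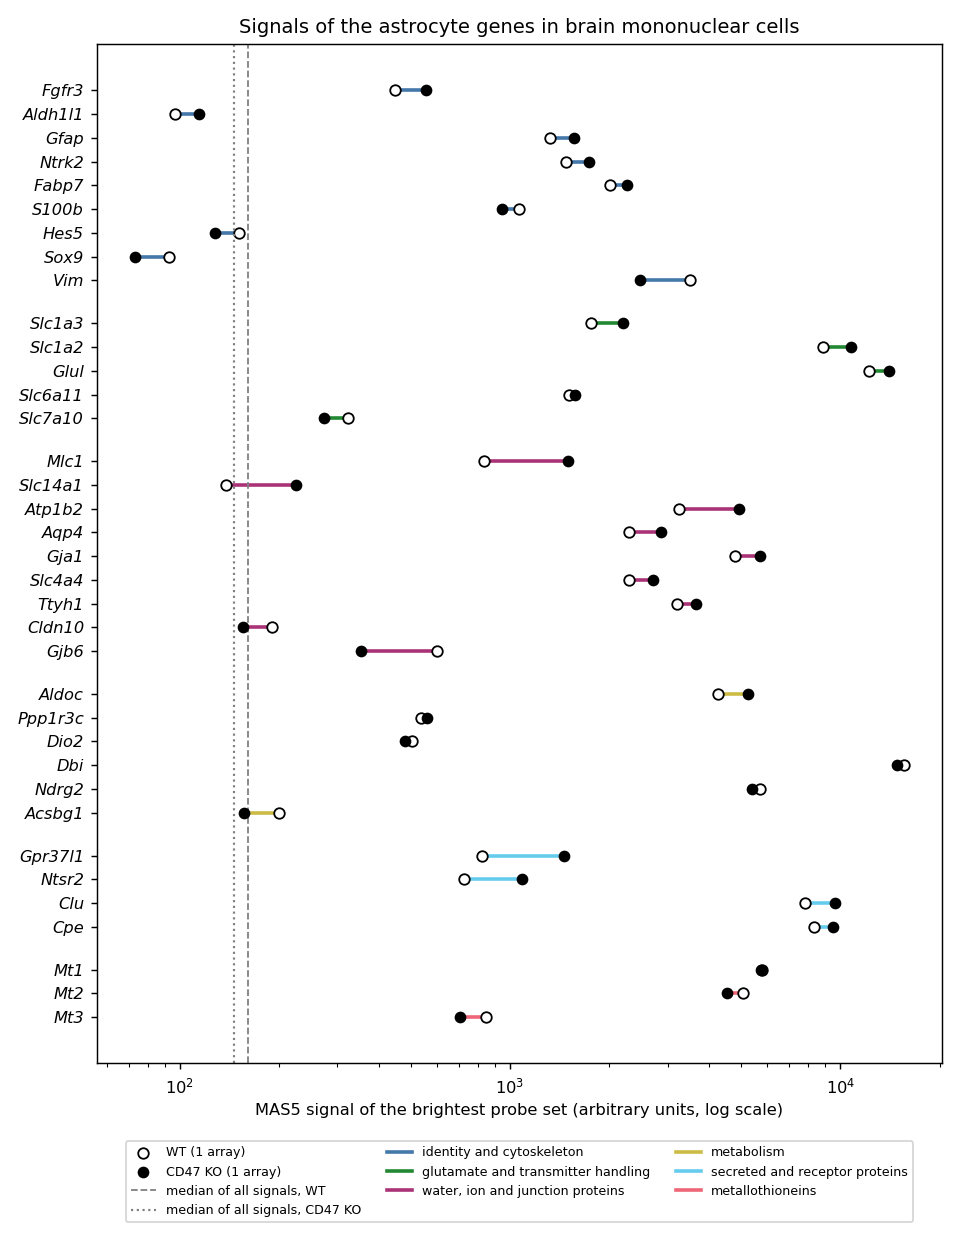
Signal of the brightest probe set of each of the 36 genes on the WT array (open circles) and the CD47 KO array (filled circles), on a log axis in arbitrary units, ordered by group and, within it, by Log2 ratio. The vertical lines mark the array medians (161 in WT, 146 in CD47 KO). *Mlc1*, *Gpr37l1* and *Slc14a1* show the widest steps to the right and *Gjb6* the widest step to the left, while *Aldh1l1*, *Sox9* and *Hes5* lie below the limit.

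The plot of signals by genotype shows that most pairs lie close together on a scale that runs from about 73.3 (*Sox9* in CD47 KO cells) to 15552 (*Dbi* in WT cells). Signals of different probe sets do not share a scale, so their order on the axis is not an order of transcript amounts.

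The water, ion and junction genes held the widest differences, with 7 of 9 higher and a median of 0.25. *Mlc1*, which encodes an astrocyte membrane protein of endfeet whose loss causes a leukodystrophy with cysts, had a signal of 837 in WT and 1498 in CD47 KO cells. Its Log2 ratio of 0.84, or 1.79-fold, was the highest of the 33 genes. It rests on 1 probe set. *Atp1b2*, the beta subunit of the sodium pump that is typical of glia, had 3251 and 4944 (0.60), but its other probe set, nearly as bright, had 3134 and 3210 (0.03). The step seen on 1 *Atp1b2* probe set was therefore not seen on the other. *Slc14a1*, a urea transporter, was dim at 138 and 225 (0.70) and was counted as expressed only through the CD47 KO array.

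*Aqp4*, the water channel of astrocyte endfeet, had 2286 in WT and 2866 in CD47 KO cells (0.33), and its other probe sets gave 0.02 and 0.59. *Gja1*, the gap junction protein connexin 43, had 4795 and 5715 (0.25). All 6 *Gja1* probe sets were higher in CD47 KO cells, with Log2 ratios between 0.04 and 0.25. Several of them, the brightest included, are marked as reading several transcripts, and the unmarked ones gave 0.06 and 0.23. *Slc4a4*, a sodium bicarbonate cotransporter, had 2288 and 2702 (0.24), and 3 of its 4 expressed probe sets were higher, the dimmest being lower at -0.35. *Ttyh1*, a chloride channel family protein of glia, had 3209 and 3661 (0.19). The dimmest *Ttyh1* probe set, at 40.9 and 147, gave 1.85, the highest value among the 75 probe sets.

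The other members of this group were lower in CD47 KO cells. *Gjb6*, which encodes connexin 30 and forms gap junctions between astrocytes together with connexin 43, had 600 in WT and 354 in CD47 KO cells (-0.76, or 1.70-fold lower). This was the lowest value of the 33 genes, so the astrocyte connexins lay on opposite sides of 0. *Gjb6* also rests on 1 probe set, whereas *Gja1* was read by 6. *Cldn10*, a claudin, was near the limit of expression at 191 and 155 (-0.30).

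The genes of glutamate and transmitter handling were more even, with 4 of 5 higher and a median of 0.20. *Slc1a2*, the main glutamate transporter of the forebrain (GLT-1), had 8851 in WT and 10762 in CD47 KO cells (0.28). Its 4 expressed probe sets agreed closely, between 0.28 and 0.34 with an SD of 0.03. *Slc1a3*, the glutamate transporter GLAST, had 1753 and 2199 (0.33). The 3 other expressed *Slc1a3* probe sets gave 0.45, 0.95 and 1.07. *Glul*, glutamine synthetase, which turns the glutamate taken up into glutamine, was among the brightest at 12238 and 14018 (0.20), with 0.15 on its other probe set. For *Slc1a3*, the probe set at 80.8 and 170 was counted as expressed only through the CD47 KO array. The 2 *Slc1a3* probe sets below both medians gave -0.05 (148 and 144) and -0.11 (130 and 121). *Slc6a11*, the GABA transporter GAT-3, had 1506 and 1571 (0.06). *Slc7a10*, a transporter of serine and other neutral amino acids, was lower at 323 and 273 (-0.24).

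The 4 secreted and receptor genes were all higher, with a median of 0.44, and remained 4 of 4 under each of 11 alternative settings. The signal thresholds among these settings cannot change a ratio. *Gpr37l1*, an orphan receptor gene of glia, had 820 in WT and 1454 in CD47 KO cells (0.83, or 1.77-fold). *Ntsr2*, a neurotensin receptor found on astrocytes, had 723 and 1085, a Log2 ratio of 0.58 that lay just inside the 1.5-fold limit. Both rest on 1 probe set. *Clu*, clusterin, a secreted chaperone that binds lipids and amyloid, had 7810 and 9625 (0.30), with its other 3 probe sets between 0.19 and 0.33. All *Clu* probe sets are marked as reading several transcripts. *Cpe*, carboxypeptidase E, which trims peptide precursors, had 8315 and 9504 (0.19).

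Identity and cytoskeletal genes were split. Of the 6 expressed, 4 were higher and 2 lower. Their median was 0.20 on the brightest probe sets but 0.01 with the mean over expressed probe sets and 0.02 with the median over all named ones. *Gfap*, the intermediate filament of astrocytes, had 1323 in WT and 1558 in CD47 KO cells (0.24). Its other probe sets pointed in opposite directions, at 1282 and 372 (-1.79) and at 490 and 965 (0.98). Both are of a class that the array maker marks as also able to read other transcripts. The mean over the 3 was -0.19, so no direction can be given for *Gfap*.

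*Vim*, vimentin, the filament that astrocytes share with endothelial, mural and meningeal cells, was lower on all 3 probe sets, with 3508 in WT and 2471 in CD47 KO cells on the brightest (-0.51). The other probe sets gave -0.65 and -1.0, the last on the only 1 of the 3 that the array maker does not mark as reading several transcripts. Marker lists of the vascular and meningeal cells were lower as well, with 15 of 17 endothelial, 7 of 10 pericyte and smooth muscle, and 13 of 15 fibroblast and meningeal genes below 0. Of the markers of neural stem cells and radial glia, which also express it, 6 of 10 were above 0. Markers of microglia, for which the preparation is made, were above 0 in 19 of 19 genes. The part of these cells in the *Vim* value was not tested.

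The remaining identity genes lay closer to 0. *S100b*, a calcium-binding protein, had 1062 and 946 (-0.17) on 1 probe set and 750 and 845 (0.17) on the other, so the probe sets cancelled. *Fgfr3*, a fibroblast growth factor receptor, had 449 and 558 (0.32), with -0.27 on its other probe set. *Ntrk2*, the receptor of brain-derived neurotrophic factor, which neurons share, had 1478 and 1731 (0.23). Its 7 expressed probe sets ran from -0.30 to 0.55, 4 of them higher. *Fabp7*, the brain fatty acid-binding protein, had 2003 and 2254 (0.17). *Hes5*, a Notch target of progenitors, was below the limit on both arrays at 151 and 128.

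**Figure D2:**
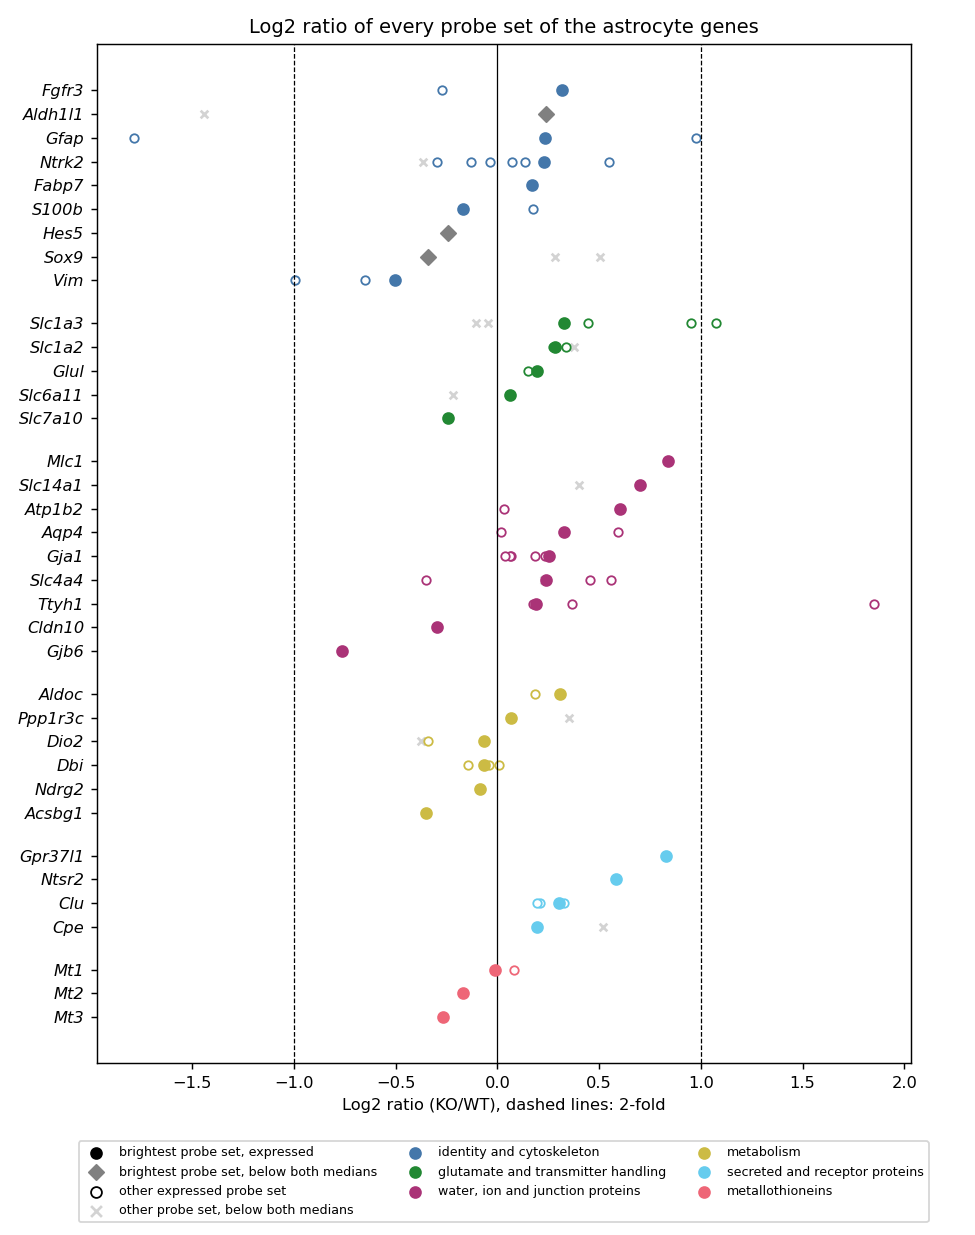
Log2 ratio (KO/WT) of each of the 92 probe sets, in rows by gene. Large filled circles are the brightest expressed probe set, open circles other expressed ones, diamonds the brightest where it lies below both medians, and crosses the others below both; dashed lines mark 2-fold. *Slc1a2*, *Gja1* and *Clu* cluster to the right of 0 and *Vim* to the left, while *Gfap* spans from -1.79 to 0.98.

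The plot of every probe set gives the agreement within genes. Of the 18 genes with more than 1 expressed probe set, 9 had all of them above 0, 2 had all below 0, and 7 had them on both sides. *Slc1a3* is among the 9 because its lower probe sets were below the limit. Over the 75 expressed probe sets, 52 (69.3%) were higher and the median was 0.17, against 50.7% higher and a median of 0.01 over all 21167 expressed probe sets with 1 symbol. Past 2-fold lay 2 higher ones (2.67%), of *Ttyh1* and *Slc1a3*, both with a WT signal below the array median, and 1 lower one (1.33%), of *Gfap*. Over all expressed probe sets these shares were 3.95% and 5.49%.

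Metabolic genes lay close to all expressed genes. Of 6 expressed, 2 were higher and 4 lower, with a median of -0.07. The difference from the median of all expressed genes was -0.07 as deposited and -0.09 with quantile or loess normalization. *Aldoc*, the brain form of the glycolytic enzyme aldolase, had 4257 in WT and 5270 in CD47 KO cells (0.31), with 0.19 on its other probe set. *Dbi*, the acyl-CoA-binding protein from which a ligand of the benzodiazepine site is made, had 15552 and 14837 (-0.07), and its other probe sets lay between -0.15 and 0.01. *Ndrg2*, a differentiation-linked gene enriched in astrocytes, had 5716 and 5393 (-0.08). On their brightest probe sets *Dbi* and *Ndrg2* thus differed by less than 1.1-fold. *Ppp1r3c*, which targets a phosphatase to glycogen, had 537 and 562 (0.07). *Dio2*, the deiodinase that makes active thyroid hormone, had 504 and 482 (-0.06). *Acsbg1*, a fatty acyl-CoA synthetase, was dim at 200 and 156 (-0.35).

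On the brightest probe sets all 3 metallothioneins had slightly lower signals in CD47 KO cells, with a median of -0.17, which ranged from -0.24 to -0.03 over the alternatives. *Mt1* had 5804 in WT and 5759 in CD47 KO cells (-0.01) on a probe set marked as reading several transcripts. Its dimmer, unmarked probe set had 357 and 378 (0.08). *Mt2* had 5089 and 4527 (-0.17). *Mt3*, the form typical of the brain, had 849 and 704 (-0.27). The sign of *Mt1* thus differed between its probe sets, whereas *Mt2* and *Mt3*, with 1 probe set each, stayed below 0 under each setting. The largest of these differences, that of *Mt3*, was smaller than the SD of 0.44 between probe sets.

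The metallothionein genes lie side by side on mouse chromosome 8, *Mt3* at chr8:94152607-94154148, *Mt2* at chr8:94172618-94173567 and *Mt1* at chr8:94178883-94180327 (RefSeq, GRCm38.p6). *Mt1* and *Mt2* are known to be switched on by zinc through the factor MTF1, which binds metal response elements, and *Mt3* much less so. The 250 bases before the RefSeq start are shown for *Mt2* and *Mt3* so that their upstream sequences can be compared. They read 5′ to 3′ on the plus strand, at chr8:94172368-94172617 and chr8:94152357-94152606, and capitals mark TGCNCNC, the core of the element, found on either strand.
Mt2: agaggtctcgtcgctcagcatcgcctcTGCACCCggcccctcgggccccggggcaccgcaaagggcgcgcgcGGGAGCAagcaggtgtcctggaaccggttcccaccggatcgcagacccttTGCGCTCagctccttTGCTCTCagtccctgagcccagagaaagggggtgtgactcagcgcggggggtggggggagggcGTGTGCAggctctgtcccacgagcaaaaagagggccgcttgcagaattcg
Mt3: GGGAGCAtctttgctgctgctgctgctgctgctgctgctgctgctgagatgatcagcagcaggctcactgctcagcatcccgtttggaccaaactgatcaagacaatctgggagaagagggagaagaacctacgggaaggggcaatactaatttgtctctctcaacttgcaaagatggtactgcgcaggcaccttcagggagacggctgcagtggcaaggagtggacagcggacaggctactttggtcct
The *Mt2* window held 5 matches, which began 223, 178, 128, 113 and 50 bases before the start, and none overlapped. The *Mt3* window held 1, at its far end. The *Mt1* window, which is not shown, also held 1. The annotated *Mt1* gene begins inside that window, and the match lies within the gene. The *Mt1* count is therefore not of upstream bases alone and cannot be compared with those of *Mt2* and *Mt3*. Of 32851 promoter windows of this length, 44.4% held at least 1 match and 4.65% at least 3. Among 37 windows of 30 of the astrocyte genes, 67.6% held at least 1. A match is a match of letters only. *Mtf1* itself had signals of 368 in WT and 386 in CD47 KO cells (0.07). Of the 24 expressed genes on a list of zinc and metal handling, 15 were higher and the median was 0.09. The brightest were the zinc importers *Slc39a6* with 3298 and 3789 (0.20), *Slc39a1* with 3157 and 3469 (0.14) and *Slc39a10* with 1937 and 1661 (-0.22).

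**Figure D3:**
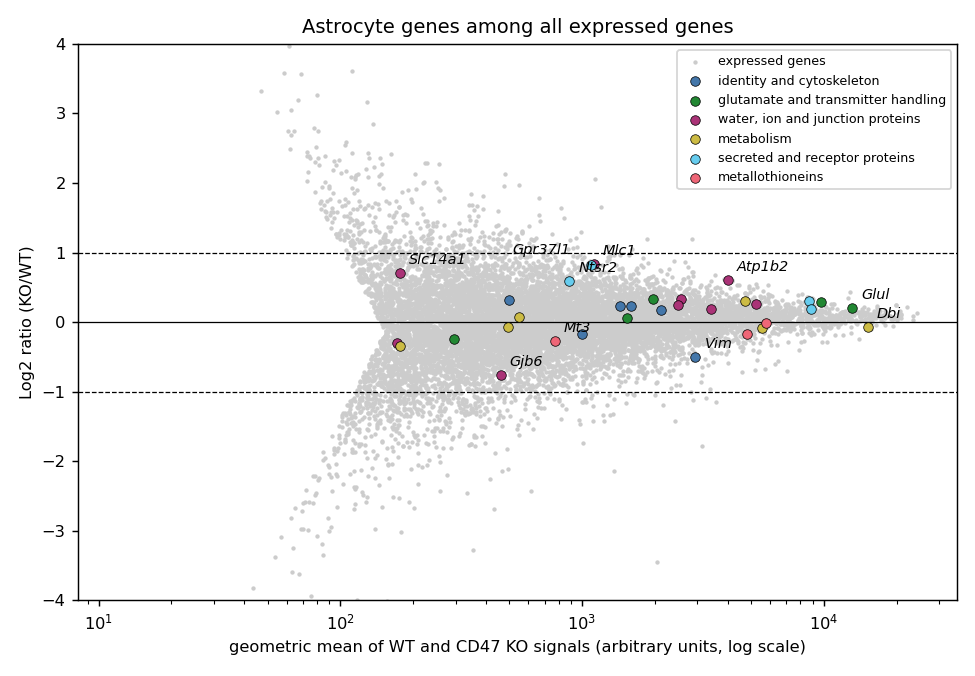
Log2 ratio (KO/WT) against the geometric mean of the WT and CD47 KO signals (log axis, arbitrary units) for all expressed genes (grey) and the 33 expressed astrocyte genes (coloured by group). Dashed lines mark 2-fold, and 13 expressed genes lie beyond the plotted limit of 4. The astrocyte genes all lie between the dashed lines, with *Mlc1* and *Gpr37l1* nearest the upper and *Gjb6* nearest the lower.

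The plot against signal shows how wide the cloud of all genes is where *Mlc1*, *Gpr37l1* and *Ntsr2* lie. In that part of the signal range, the third of 4, 6.95% of genes were past 1.5-fold higher and 0.959% past 2-fold higher. In the brightest part, where *Atp1b2* lies, 2.02% were past 1.5-fold higher. *Slc14a1* lies in the dimmest part, where 19.7% were past 1.5-fold higher, and *Gjb6* in the next, where 15.5% were past 1.5-fold lower.

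Other astrocyte genes came from a list that shares none of the 36. Of 58 expressed, 36 (62.1%) were higher, against 50.3% of all expressed genes, and the median was 0.13. With a stricter limit (541 in WT or 532 in CD47 KO), 19 of 33 (57.6%) were higher, against 53.7% of all genes reaching it. Their median was then 0.11, against 0.03. The list thus lay closer to the background when only brighter genes were counted. The brightest of the list was *Cst3*, the protease inhibitor cystatin C, which microglia express too. It had 19973 in WT and 21628 in CD47 KO cells (0.11). *Fxyd1*, a regulator of the sodium pump, had 4206 and 3082 (-0.45), and *Igfbp2*, a binding protein of insulin-like growth factors that meningeal cells also make, had 3927 and 2502 (-0.65). Past 2-fold and with a bright signal, *Ptprz1*, a receptor phosphatase of astrocytes and oligodendrocyte precursors, was higher at 536 and 1169 (1.13). *Slc16a9*, a transporter of the monocarboxylate family, was lower at 1635 and 593 (-1.46).

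Genes known to be induced in reactive astrocytes lay the other way. Of 20 expressed, 5 (25%) were higher, against 50.3% of all expressed genes, and 15 were lower. Their median was -0.43 and ranged from -0.46 to -0.08 over the alternatives. Past 2-fold, 2 were higher and 4 lower, against 3.53% and 5.41% of all expressed genes. The higher ones were *Ch25h* with 60.2 in WT and 217 in CD47 KO cells (1.85) and *Nes* with 127 and 255 (1.01). Both had a WT signal below the array median. *Lcn2*, lipocalin 2, had 7740 in WT and 5083 in CD47 KO cells (-0.61), *Tm4sf1* had 1218 and 886 (-0.46), and *Stat3* had 779 and 756 (-0.04). *Cp*, the copper enzyme ceruloplasmin, had 757 and 360 (-1.07). Several of these genes are also expressed by other cells, *Lcn2* by neutrophils and *Tm4sf1* by endothelial cells, and their part in the values was not tested. *Gfap* and *Vim*, the filaments most often read for reactivity, are given above.

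Partners of the pathways showed small medians. Of 16 genes of glutamate and glutamine handling, 9 were higher with a median of 0.08, which turned to 0.00 with the mean over probe sets. The brightest were *Got1* with 4671 and 4519 (-0.05), *Gad1* with 4582 and 3785 (-0.28) and *Glud1* with 3238 and 3318 (0.03). Of 15 potassium, water and junction partners, 6 were higher with a median of -0.11, and the brightest were *Atp1b1* with 13800 and 15281 (0.15), *Fxyd1*, given above, and *Car2* with 3809 and 5003 (0.39). Of 19 glycogen and glycolysis partners, 11 were higher with a median of 0.05. *Ldhb* had 11746 and 12639 (0.11), *Aldoa* had 9644 and 10110 (0.07), *Ldha* had 7076 and 7944 (0.17), and *Ppp1r3f*, a glycogen-targeting subunit, had 636 and 189 (-1.75).

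**Figure D4:**
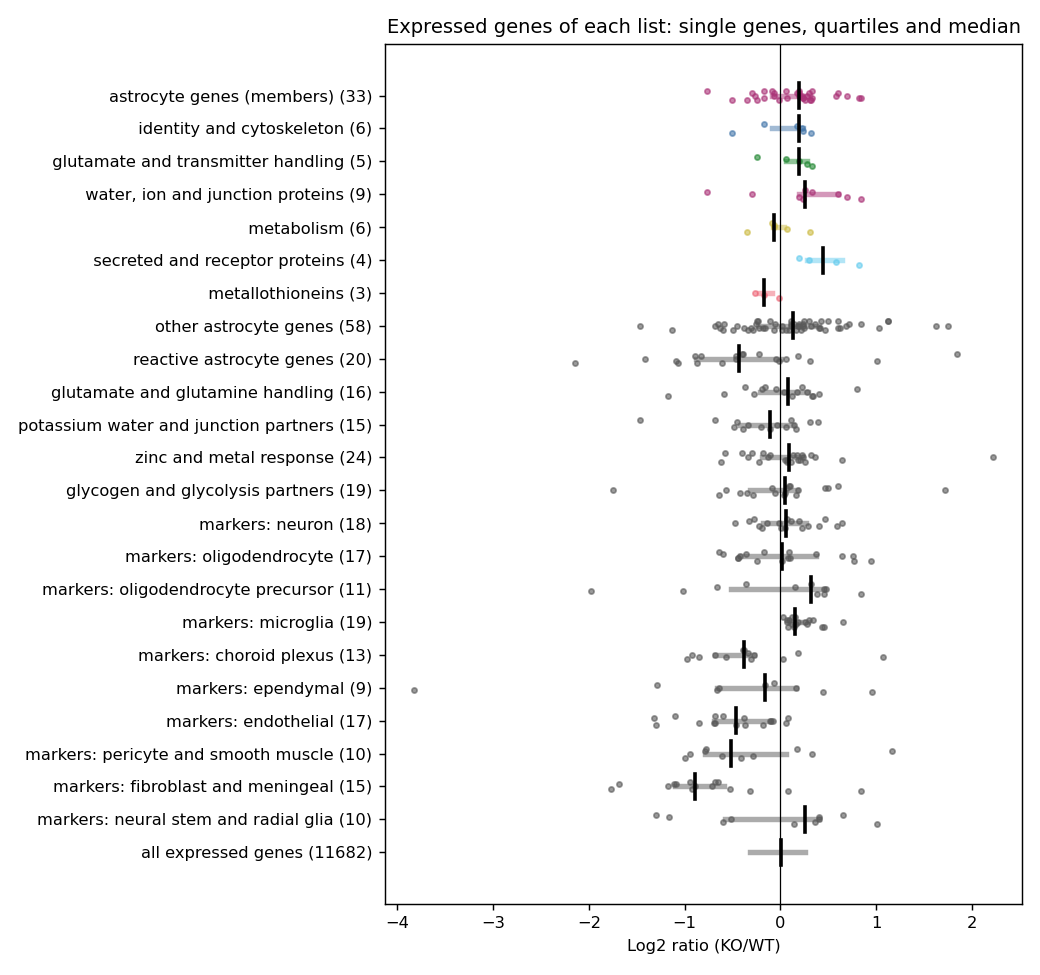
Log2 ratio (KO/WT) by list, 1 point per expressed gene with their number in brackets, a bar for the quartiles and a black tick for the median, and the quartiles and median of all 11682 expressed genes at the bottom. The 33 astrocyte genes have their median at 0.19, the microglial markers at 0.15 and the fibroblast and meningeal markers at -0.89.

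Markers of the other cells in the preparation are given beside the astrocyte genes in the plot of lists, since the pools may differ in their mix of cells. Summed signals are over all named genes of a list, those below the limit included, whereas counts and medians are over the expressed ones. Microglial markers were higher in 19 of 19 genes with a median of 0.15, though in 15 with quantile and 14 with loess normalization (median 0.09 in both). Their summed signal was 183227 in WT and 206610 in CD47 KO cells. Neuronal markers were higher in 11 of 18 (0.06), with summed signals of 69147 and 73004. Oligodendrocyte markers were higher in 9 of 17 (0.02), with 23858 and 24438. Neurons also express *Ntrk2*, *Clu* and *Cpe*, and their part in those values was not tested. Oligodendrocyte precursor markers were higher in 7 of 11 (0.32), with 4614 and 5131, and those of neural stem cells and radial glia in 6 of 10 (0.26), with 3561 and 3568. No direction can be given for the latter, whose median was 0.01 with the mean over probe sets and -0.44 without probe sets marked as reading several transcripts.

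Epithelial, vascular and meningeal markers were lower. Choroid plexus markers were lower in 10 of 13 genes (-0.38), with summed signals of 41887 and 37691, and ependymal markers in 6 of 9 (-0.16), with 6164 and 5115. Endothelial markers were lower in 15 of 17 (-0.47), with 24539 and 20636, and pericyte and smooth muscle markers in 7 of 10 (-0.51), with 14226 and 10287. Fibroblast and meningeal markers were lower in 13 of 15 (-0.89), with 13524 and 8480. A marker counted as expressed can still be dim on 1 array, because the limit has to be reached in only 1 of the genotypes. The part of these cells in the values of the astrocyte genes was not tested.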

How the data were processed

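Signals of 1 WT and 1 CD47 KO array were used. The deposited values are linear signal intensities per probe set, which the authors made with the MAS5 algorithm in Expression Console (version not given in the sources used here). After removing 2% of values at each end, the mean was 500.002 on both arrays, and detection calls were not used here. Of 45101 probe sets, 64 are controls, and the platform annotation gives 34945 exactly 1 symbol, 932 several and 9160 no name here. Of the probe sets with several symbols, 1 includes an astrocyte gene and was left out.

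Log2 ratios (KO/WT) are of the deposited signals themselves, without an offset or a test. The genes and the 16 lists (331 genes, 311 with a named probe set) were chosen with earlier results of these data known. Each of the 36 genes is named, and of each pathway or astrocyte list the 3 brightest expressed genes and those past 2-fold that reach the 75th percentile of an array (541 in WT, 532 in CD47 KO). Outside this rule, *Mtf1*, *Xist*, *Eif2s3y*, *Kdm5d*, *Uty*, *Ch25h* and *Nes* were chosen after their values were seen, and markers of other cells are given as counts. Results were recomputed under 11 alternatives to the signal threshold, the normalization (loess fraction 0.4), low signals and the choice of probe set. Calculations were tested on simulated data whose planted differences were larger than those of the astrocyte genes on their brightest probe sets. Recovery of smaller differences was not tested. Python 3.11.15, pandas 2.3.3, numpy 2.4.6, scipy 1.17.1, statsmodels 0.14.6 and matplotlib 3.10.9 were used. Positions and promoter sequences are from RefSeq (GRCm38.p6), and promoter windows of 30 of the 36 genes were used. Astrocyte genes on chromosome 18, *Aqp4* and *Slc14a1*, were left out of these. The 32851 windows were not filtered by chromosome. The annotated *Mt1* gene begins inside its window, so that window is not shown.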

Additional observations from a re-analysis of the deposited data

How the results depend on the processing

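Of the 33 expressed astrocyte genes, 26 kept the sign of their Log2 ratio under each of the 11 alternatives that gave a value (19 higher, 7 lower), and 7 did not (*Dbi*, *Dio2*, *Gfap*, *Mt1*, *Ndrg2*, *S100b* and *Slc6a11*). The number higher ran from 20 to 25 and the number past 2-fold was 0 in each direction under every setting. The median of the 33 genes, 0.19 as deposited, was 0.33 with both arrays centred to the same median, where the median of all expressed genes moved from 0.00 to 0.14. That shift applies to all genes alike, and it also put the medians of the metabolic genes (0.07) and of the potassium, water and junction partners (0.03) above 0. It was 0.075 with the mean over expressed probe sets, and the cause was not tested. Relative to all expressed genes it ran from 0.08 to 0.23. Of 357 values of single genes under the alternatives, 355 moved by less than the spread between probe sets. The exceptions were *Ttyh1* (0.65 with the mean over probe sets) and *Vim* (-1.0 without probe sets marked as reading several transcripts). Many of the 357 values could hardly move, which also limits what the kept signs show. The signal thresholds leave a ratio as it is, and centring shifts all genes alike. A gene with 1 probe set has no other to choose. The median of the neural stem and radial glia markers turned to -0.44, also without those probe sets, and that of the oligodendrocyte markers ran from -0.17 to 0.21. No paired analysis was possible because each genotype has 1 array. Dim signals limit the readings of *Slc14a1*, *Cldn10* and *Acsbg1*, and leave *Aldh1l1*, *Sox9* and *Hes5* without one above the limit.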
